A study of Mus musculus with 48 samples.

Results

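Interferon regulatory factors are the transcription factors encoded by the Irf genes. The 8 genes described here, Irf1, Irf2, Irf3, Irf4, Irf5, Irf7, Irf8 and Irf9, were taken by name from a count table of 36854 genes, and their levels were read in 48 mouse sarcomas. All tumours were of the 129/SvJae background and were harvested 3 days after treatment. The 32 primary tumours were induced in the gastrocnemius muscle of p53FL/FL mice, 6 to 10 weeks old, by Adeno-Cre, a virus whose Cre recombinase deletes the floxed p53 alleles, and then by the carcinogen MCA. The 16 allografts were grown from a single cell line, 402230, put into the same muscle of syngeneic mice whose age the labels do not give. All 16 therefore share 1 line of tumour cells, whereas each primary tumour was induced in its host. Within each kind there were 4 groups: 0 Gy with isotype control antibody, 0 Gy with anti-PD-1 (muDX400, a murine antibody against an inhibitory receptor of T cells), 20 Gy with isotype and 20 Gy with anti-PD-1. Every mouse received 200 µg of one antibody, and irradiated mice received the dose to the whole left hind limb immediately afterwards. An allograft group held 4 tumours and a primary group 8.

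Interferon regulatory factors share a DNA-binding domain that recognises GAAA repeats, the core of the interferon-stimulated response element (ISRE). Irf3, Irf5 and Irf7 are held in the cytoplasm until kinases downstream of nucleic acid sensors phosphorylate them, after which they switch on type I interferon genes. Irf9 joins Stat2 in ISGF3, the complex that carries the type I interferon signal to the nucleus, and Irf7 is itself a target of that complex. Irf1 is a mediator of the interferon gamma response and Irf2 can compete with it for the same sites, while Irf4 and Irf8 act with partner factors such as PU.1 (gene Spi1) and Batf in lymphoid and myeloid cells. Much of the control of Irf3 and Irf5 is by phosphorylation, which messenger RNA does not show.

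Totals of counts per tumour were 31.8 to 54 M, with a median of 41.2 M, and the leukocyte marker Ptprc (CD45) and the mesenchymal markers were present in every group. Summed over 5 general leukocyte markers, the level ran from 573 to 1139 CPM (read counts divided by the library size, which was adjusted by TMM factors) in unirradiated isotype allografts and from 1457 to 2208 CPM in irradiated isotype allografts. In primary tumours the same sum ran from 475 to 799 CPM without and from 806 to 1942 CPM with radiation under isotype, and from 493 to 823 CPM and 405 to 2046 CPM under anti-PD-1. Skeletal muscle markers summed to between 13.7 and 81543 CPM in single primary tumours. In whole tumours, more cells of a type and more RNA per cell cannot be told apart.

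Promoter sequence is shown for 2 motifs through which interferon signals are known to act on genes of this family, the gamma-activated site called GAS (searched as TTCNNNGAA, which reads the same on both strands) and the ISRE core (searched as GAAANNGAAA on either strand). RefSeq windows of GRCm38.p6 were found for 8 of 8 members, 11 windows in all, and the 250 bases before each start were searched. A GAS match is in 7.04% and an ISRE core match in 2.98% of 32536 such windows. Irf1, Irf2 and Irf8 held GAS letters, at chr11:53769899-53769957, chr8:46739496-46739554, chr8:120736162-120736220 and chr8:120736180-120736238, plus strand, the motif beginning 90, 224, 171 and 153 bases before the start. Irf2 was the member with an ISRE core match, at chr8:46739495-46739538, plus strand, 241 bases before the start, and it lies in the same stretch as the GAS match. Capitals mark the motif.
Irf1 GAS: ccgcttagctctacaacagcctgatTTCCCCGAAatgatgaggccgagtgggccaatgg
Irf2 GAS: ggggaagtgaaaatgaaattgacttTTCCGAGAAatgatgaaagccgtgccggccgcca
Irf8 GAS, distal: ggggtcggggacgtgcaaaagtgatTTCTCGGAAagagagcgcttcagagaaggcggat
Irf8 GAS, proximal: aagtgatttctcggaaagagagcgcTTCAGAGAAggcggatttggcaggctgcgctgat
Irf2 ISRE core: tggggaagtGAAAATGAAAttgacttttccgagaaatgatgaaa
The windows of Irf3, Irf4, Irf5, Irf7 and Irf9 held neither string of letters, nor did the second windows of Irf1, Irf8 and Irf9. A match is a description of the sequence, and no binding was measured here.

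Irf7 (ENSMUSG00000025498, chr7:141262706-141266481, minus strand), the factor that amplifies interferon alpha production, was the member that moved most after radiation. In allografts given isotype it stood at 106.2, 158, 216 and 108.7 CPM in the 4 unirradiated tumours and at 1801, 976, 1032 and 1247 CPM in the 4 irradiated ones. Every irradiated tumour was above every unirradiated one, and the fit gave a log2 fold change of 3.12 (SE 0.36, edgeR's quasi-likelihood test, adjusted p = 0.00091, Benjamini-Hochberg over 17746 genes). Under anti-PD-1 the allografts ran from 120 to 305 CPM without and from 746 to 1668 CPM with radiation, again without overlap (log2 fold change 2.34, SE 0.35, adjusted p = 0.0049). With the log2 level of Ptprc, the general leukocyte marker, in the fit both allograft calls were lost (1.98 and 1.29, edgeR adjusted p = 0.53 and 0.88). The primary tumours showed the same direction. With isotype the lowest, median and highest were 50.5, 132.2 and 739 CPM at 0 Gy and 749, 1135 and 1306 CPM at 20 Gy (log2 fold change 2.47, SE 0.43, adjusted p = 0.00029). The groups did not overlap, although replicate 4 of the unirradiated tumours, at 739 CPM, stood just below the lowest irradiated one. Without that tumour the log2 fold change was 3.20 (edgeR adjusted p = 7.8e-07). Under anti-PD-1 the primary tumours stood at 56.3, 185 and 294 CPM without and at 180, 823 and 1124 CPM with radiation (log2 fold change 2.18, SE 0.43, adjusted p = 0.0023). In that comparison 7 of 8 irradiated tumours were above all unirradiated ones, and replicate 5, at 180 CPM, was the exception; it also had the lowest leukocyte marker sum of its group, 405 CPM. Irf7 overlaps Phrf1 on the opposite strand by 45 exon bases.

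Irf9 (ENSMUSG00000002325, chr14:55603571-55610030, plus strand), the DNA-binding subunit of ISGF3, rose in all of these comparisons by a smaller factor. Isotype allografts stood at 50.6, 48.9, 61.5 and 39.3 CPM unirradiated and at 140, 95.6, 105.97 and 104.1 CPM irradiated (log2 fold change 1.17, SE 0.16, adjusted p = 0.0015), with no overlap. Under anti-PD-1 the allograft means were 67.2 ± 10.6 (SD, n = 4) and 121.2 ± 13.5 CPM (log2 fold change 0.87, edgeR adjusted p = 0.011). Both allograft calls were lost with log2 Ptprc in the fit (0.58 and 0.31, edgeR adjusted p = 0.92 and 0.9998). In primary tumours given isotype the lowest, median and highest were 32.4, 54.4 and 133.4 CPM at 0 Gy and 105.99, 129 and 147 CPM at 20 Gy (log2 fold change 1.04, SE 0.20, adjusted p = 0.00084). The same unirradiated primary tumour that was high in Irf7, replicate 4, held 133.4 CPM of Irf9, and the next highest was at 72.2 CPM. Under anti-PD-1 the primary medians were 60.4 and 104.1 CPM (log2 fold change 0.81, edgeR adjusted p = 0.013). Irf9 shares exon sequence with Rnf31 on the same strand, so its count may be uncertain where reads fell on that stretch.

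**Figure D1:**
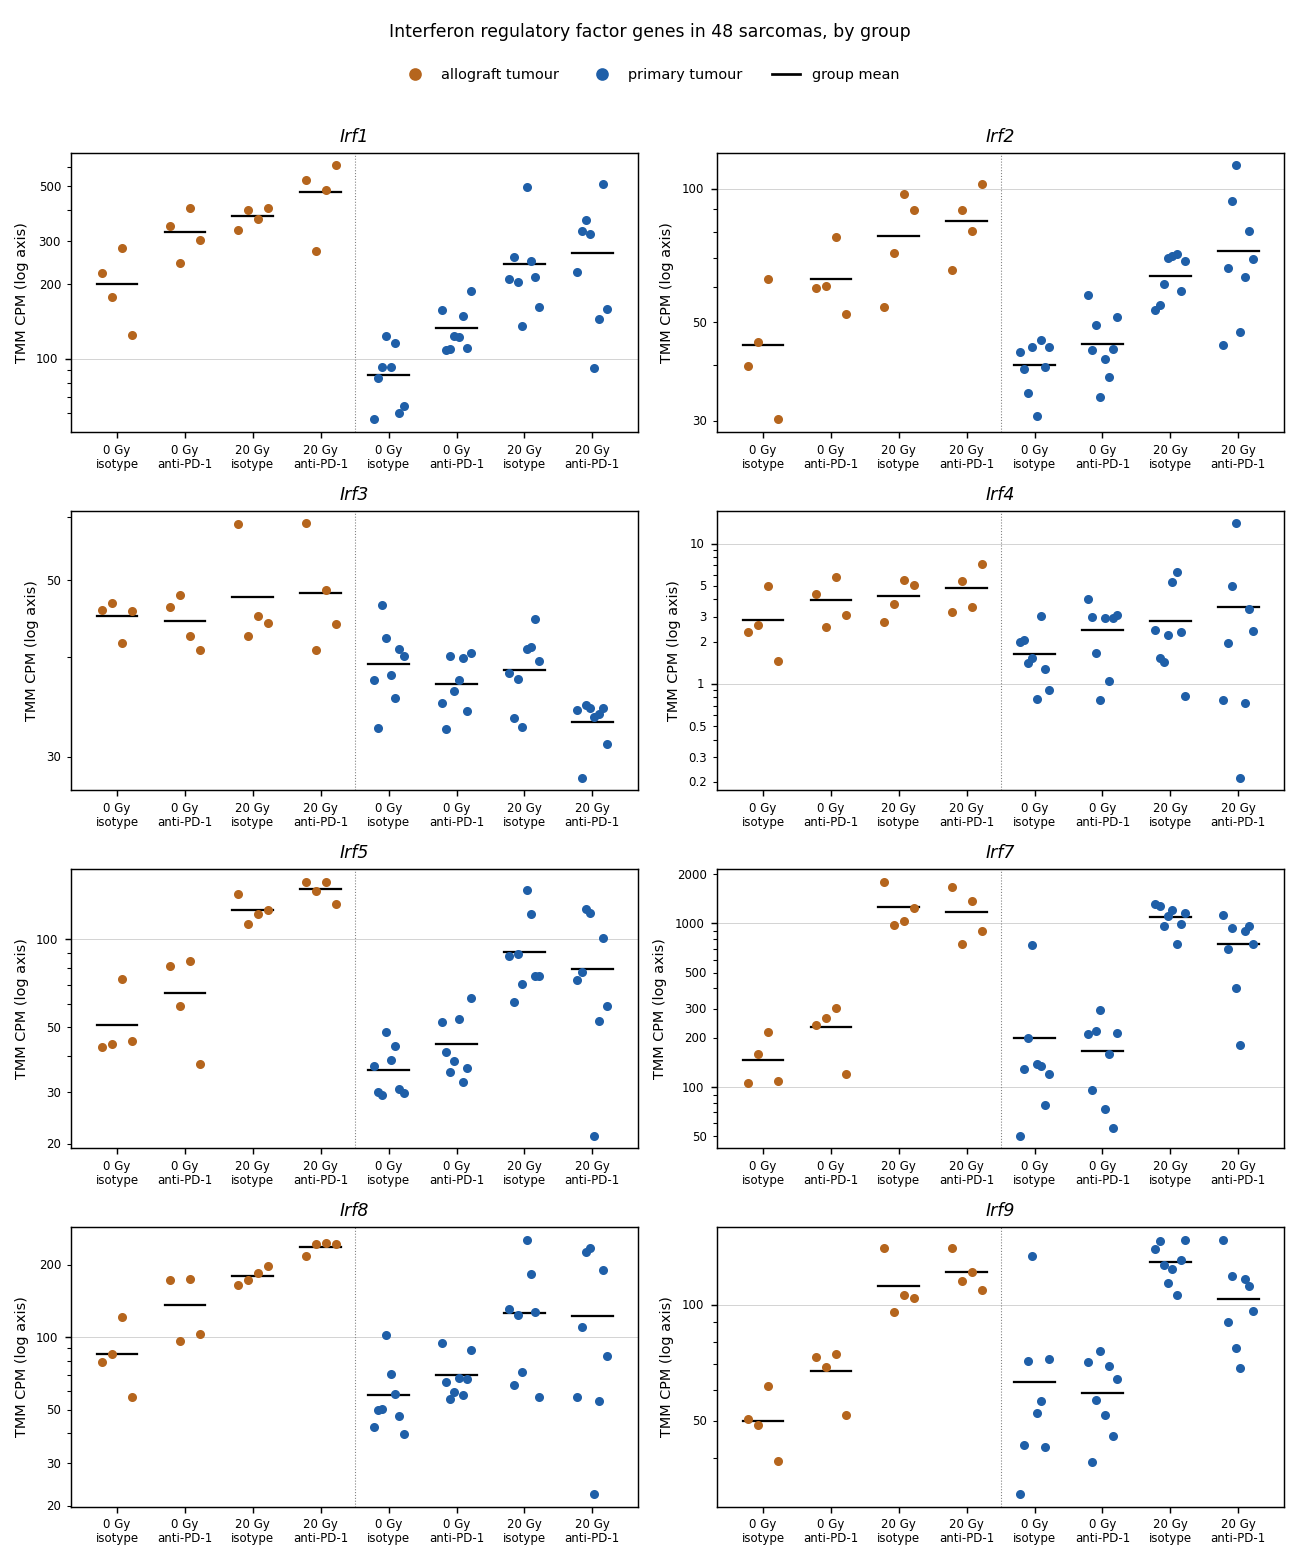
Level of each of the 8 genes in every tumour, as TMM-scaled CPM on a log axis, by group, with allografts in brown, primary tumours in blue and a black line at the group mean. Irf7 stands between 976 and 1801 CPM in the 4 irradiated isotype allografts and between 106.2 and 216 CPM in the 4 unirradiated ones, whereas for Irf3 and Irf4 the same 2 groups overlap.

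Over all 8 members the comparison of 20 Gy with 0 Gy called 4 higher in isotype allografts (Irf5, Irf7, Irf8 and Irf9), where 5.14% of 17746 genes were called in either direction, and 3 higher under anti-PD-1 (Irf5, Irf7 and Irf9), where 3.96% were. Genes with an adjusted p under 0.05 count as called. In primary tumours 6 rose under isotype (all but Irf3 and Irf4; 14.5% of 17770 genes called) and 5 under anti-PD-1 (Irf1, Irf2, Irf5, Irf7 and Irf9; 7.92% called). No member was called lower in these 4 comparisons. Genes called higher were 4.4% and 3.13% of all in allografts and 7.85% and 6.06% in primary tumours, isotype first, and genes called lower were 0.744%, 0.828%, 6.64% and 1.86%. The 3 calls in allografts under anti-PD-1 were lost with the 2 groups compared fitted alone (edgeR adjusted p from 0.057 to 0.085), and with all 48 tumours in 1 fit the Irf7 call held while Irf5 and Irf9 did not pass (adjusted p = 0.062 and 0.10). The median log2 fold change of the members was 1.02 and 0.69 in allografts and 1.10 and 0.82 in primary tumours, isotype first, against medians over all genes between -0.02 and 0.02. The members were chosen as a family, and the comparisons within a kind that share a group are not independent of one another.

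Irf5 (ENSMUSG00000029771, chr6:29526625-29541871, plus strand), a factor of macrophages and other myeloid cells that acts downstream of Toll-like receptors, rose about as steeply as Irf9. Its values in isotype allografts were 42.7, 43.8, 73.2 and 44.8 CPM at 0 Gy and 143.1, 112.8, 122.5 and 125.9 CPM at 20 Gy (log2 fold change 1.32, SE 0.23, adjusted p = 0.0042). All 4 irradiated tumours exceeded the unirradiated ones, including replicate 3 at 73.2 CPM. Primary isotype tumours had 29.2, 33.8 and 48.1 CPM as the lowest, median and highest at 0 Gy and 61, 81.4 and 147 CPM at 20 Gy (log2 fold change 1.36, SE 0.24, adjusted p = 0.00039), also without overlap. Under anti-PD-1 the rise was 1.20 in allografts (edgeR adjusted p = 0.012) and 0.86 in primary tumours (adjusted p = 0.025). In the latter, replicate 5 of the irradiated group held 21.3 CPM, below every unirradiated tumour. This call was lost without replicate 6 or 7 of the unirradiated group or replicate 3 or 4 of the irradiated group (log2 fold change down to 0.74, edgeR adjusted p up to 0.071). It was also lost with the 2 groups compared fitted alone (0.88, edgeR adjusted p = 0.086) and with log2 Ptprc in the fit (0.33, adjusted p = 0.17). With that term both allograft calls were lost too, at 0.32 under isotype (edgeR adjusted p = 0.92) and 0.27 under anti-PD-1 (adjusted p = 0.9998). The 8 macrophage markers summed to 1638 to 2452 CPM in unirradiated and 2855 to 4595 CPM in irradiated isotype allografts, with 1 called higher. In isotype primary tumours the sums were 1739 to 3453 and 2116 to 4176 CPM, with 3 called higher. Over all genes 4.4% and 7.85% were called higher, and the part of macrophages in the Irf5 values was not tested. Irf5 overlaps Tnpo3 on the opposite strand by 411 exon bases, and because the strand setting of the counting is not given in the sources used here, reads of the 2 genes may be mixed there.

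Irf3 (ENSMUSG00000003184, chr7:44997648-45002848, plus strand), a factor that the STING and RIG-I pathways activate, differed little between doses. In isotype allografts it was at 45.9, 46.8, 41.7 and 45.8 CPM unirradiated and at 58.8, 42.6, 45.2 and 44.2 CPM irradiated. The groups overlapped, with a log2 difference of 0.10 (95% interval -0.15 to 0.35). Primary isotype tumours ran from 32.6 to 46.6 CPM at 0 Gy and from 32.7 to 44.7 CPM at 20 Gy, a log2 difference of -0.01 (interval -0.17 to 0.15). Under anti-PD-1 the log2 difference was 0.13 in allografts (interval -0.12 to 0.38) and -0.15 in primary tumours (interval -0.30 to 0.01). In the latter, 2 of 8 irradiated tumours were below all unirradiated ones. Within a group the coefficient of variation of Irf3 ran from 5.03 to 16.4% over the 8 groups, against 16.9 to 111.98% for Irf7, and in both groups of irradiated allografts Irf5 and Irf8 had a smaller one than Irf3. Irf3 overlaps Bcl2l12 on the opposite strand by 88 exon bases.

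Irf1 (ENSMUSG00000018899, chr11:53770014-53778374, plus strand), which activates antigen presentation genes and guanylate-binding protein genes, rose in primary tumours. Given isotype they had 56.7, 87.7 and 124.04 CPM as the lowest, median and highest at 0 Gy and 135.2, 212 and 499 CPM at 20 Gy, with no overlap (log2 fold change 1.51, SE 0.28, adjusted p = 0.00043). Under anti-PD-1 the values were 107.995, 123.1 and 188 CPM against 91.6, 272 and 510 CPM, so that the groups overlapped (log2 fold change 1.02, SE 0.27, adjusted p = 0.020). Without replicate 7 of the irradiated anti-PD-1 group this last call was lost (0.82, edgeR adjusted p = 0.057), and with log2 Ptprc in the fit it was lost as well (0.49, adjusted p = 0.18). In isotype allografts Irf1 was at 223, 178, 281 and 124.4 CPM and at 332, 401, 368 and 409 CPM after radiation. All 4 irradiated values were above the unirradiated ones, and the difference of 0.93 (SE 0.27) had an edgeR adjusted p of 0.062, past the threshold without replicate 3 of the unirradiated group (1.14, adjusted p = 0.022) and with DESeq2 (0.91, adjusted p = 0.014). In allografts given anti-PD-1 Irf1 averaged 325 ± 68.6 CPM unirradiated and 475 ± 144.3 CPM irradiated (SD, n = 4 each), a difference of 0.57 (SE 0.27, edgeR adjusted p = 0.26). Irf1 shares exon bases with Gm17334, a gene on the opposite strand with a median count of 12 per tumour.

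Irf2 (ENSMUSG00000031627, chr8:46739732-46847458, plus strand), best known as a counterpart of Irf1 that occupies the same sites, had a smaller log2 difference between doses than Irf1 in both kinds, under either antibody. Primary isotype tumours had 30.7, 41.3 and 45.5 CPM at 0 Gy and 53.5, 64.8 and 71.4 CPM at 20 Gy, without overlap (log2 fold change 0.68, SE 0.15, adjusted p = 0.0021, lost at 0.38 with log2 Ptprc in the fit, edgeR adjusted p = 0.089). Under anti-PD-1 the medians were 43.5 and 68 CPM (log2 fold change 0.70, edgeR adjusted p = 0.0036). Isotype allografts stood at 40, 45.3, 62.5 and 30.2 CPM and at 54.3, 71.7, 97.6 and 89.4 CPM, a difference of 0.84 (SE 0.24, edgeR adjusted p = 0.057) with 3 of 4 irradiated tumours above all unirradiated ones. It passed the threshold with DESeq2 (0.82, adjusted p = 0.018), with all 48 tumours in 1 fit (0.81, edgeR adjusted p = 0.033), and without replicate 3 of the unirradiated group (1.06, edgeR adjusted p = 0.015) or replicate 1 of the irradiated group (0.99, edgeR adjusted p = 0.036). Allografts given anti-PD-1 averaged 62.6 ± 10.8 CPM unirradiated and 84.4 ± 15.6 CPM irradiated (SD, n = 4 each), a difference of 0.45 (SE 0.24, edgeR adjusted p = 0.32).

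Irf8 (ENSMUSG00000041515, chr8:120736358-120756694, plus strand), which directs the development of monocytes and of conventional type 1 dendritic cells (cDC1), rose under isotype in both kinds. Allografts were at 78.8, 85.1, 120.8 and 56.5 CPM and, after radiation, at 165, 173, 184 and 198 CPM (log2 fold change 1.10, SE 0.23, adjusted p = 0.012). The groups did not overlap, yet the call was lost without replicate 2 (1.09, edgeR adjusted p = 0.056) or replicate 4 (0.94, adjusted p = 0.053) of the unirradiated group and with all 48 tumours in 1 fit (1.08, adjusted p = 0.26). Primary isotype tumours had 39.7, 50.2 and 102.5 CPM as the lowest, median and highest at 0 Gy and 56.4, 125.4 and 254 CPM at 20 Gy (log2 fold change 1.15, SE 0.35, adjusted p = 0.026). That call was lost without replicate 5 (0.95, edgeR adjusted p = 0.081) or replicate 6 (1.08, adjusted p = 0.053) of the irradiated group, and with muscle markers in the fit (1.01, adjusted p = 0.051). With log2 Ptprc in the fit Irf8 was at 0.18 in isotype allografts (edgeR adjusted p = 0.93) and 0.01 in isotype primary tumours (adjusted p = 0.98). Under anti-PD-1 the differences were 0.82 in allografts (edgeR adjusted p = 0.056) and 0.83 in primary tumours (adjusted p = 0.15). In allografts the threshold was passed there without replicate 1 (0.94, edgeR adjusted p = 0.049) or replicate 3 (0.98, adjusted p = 0.034) of the unirradiated group, and in primary tumours without replicate 5 of the irradiated group (0.98, adjusted p = 0.043). DESeq2 called the allograft difference (0.80, adjusted p = 0.015). The 5 markers of cDC1 summed to 48.7 to 153 CPM in unirradiated and 119.2 to 194 CPM in irradiated isotype allografts, and 0 of the 5 were called. In isotype primary tumours they summed to 47 to 80.4 CPM at 0 Gy and 49.1 to 264 CPM at 20 Gy, highest in replicate 5, with 0 of the 5 called. Monocyte and neutrophil markers, 7 genes, summed to 221 to 465 CPM in unirradiated and 531 to 797 CPM in irradiated isotype allografts, with 1 of the 7 called higher. In isotype primary tumours that sum had medians of 116.6 and 488 CPM, with 3 of 7 called higher. Over all genes 4.4% in allografts and 7.85% in primary tumours were called higher. The part of these cells in the Irf8 result was not tested.

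Irf4 (ENSMUSG00000021356, chr13:30749226-30766976, plus strand), a factor of plasma cells, activated T cells and some dendritic cells, was the scarcest member. It ran from 0.215 to 13.9 CPM over the 48 tumours, which is 11 to 413 reads. Isotype allografts held 2.36, 2.61, 5 and 1.46 CPM at 0 Gy and 2.75, 3.73, 5.51 and 5.04 CPM at 20 Gy, a difference of 0.60 with an interval of -0.17 to 1.38. In primary isotype tumours the medians were 1.47 and 2.27 CPM and the groups overlapped (difference 0.80, interval -0.28 to 1.88). Under anti-PD-1 the differences were 0.31 in allografts (interval -0.46 to 1.08) and 0.56 in primary tumours (interval -0.51 to 1.63). The widest spread was among irradiated primary tumours given anti-PD-1, from 0.215 CPM in replicate 5 to 13.9 CPM in replicate 4. The 6 B and plasma cell markers summed to 2.35 CPM in replicate 5 and 225 CPM in replicate 4, the lowest and the highest of that group, and the 6 T cell markers to 4.71 and 236 CPM. Skeletal muscle markers summed to 81543 CPM in replicate 4 and 25.9 CPM in replicate 5. What part these other cells have in the Irf4 values was not tested.

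Tumours given both treatments, set against unirradiated isotype tumours, had 6 members called higher in each kind, Irf1, Irf2, Irf5, Irf7, Irf8 and Irf9, where 9.66% of genes were called in allografts (7.43% higher, 2.23% lower) and 13.8% in primary tumours (8.78% higher, 4.98% lower). In allografts Irf1 (1.24, SE 0.27, edgeR adjusted p = 0.010) and Irf2 (0.93, SE 0.24, adjusted p = 0.023) were both called, and the Irf2 call was lost without any 1 of replicates 1, 2 and 4 of the unirradiated isotype group or without replicate 4 of the irradiated anti-PD-1 group (edgeR adjusted p up to 0.081). Irf5 rose by 1.54, Irf8 by 1.48 and Irf9 by 1.27 there, and Irf7 by 2.99 (SE 0.36, edgeR adjusted p = 0.00059). All 6 allograft calls, and those of Irf8 and Irf9 in primary tumours, were lost with log2 Ptprc in the fit, whose values follow with the Ptprc levels. Among primary tumours Irf1 rose by 1.65 (SE 0.28, edgeR adjusted p = 0.00028), Irf7 by 1.91 (SE 0.42, adjusted p = 0.0030, or 2.64 without unirradiated replicate 4), Irf5 by 1.16, Irf2 by 0.87 and Irf9 by 0.72. Irf8 rose by 1.10 (SE 0.35, edgeR adjusted p = 0.035), a call lost on leaving out any 1 of 7 tumours (unirradiated replicates 1, 2, 3 and 8, irradiated replicates 3, 4 and 7; adjusted p up to 0.10). Irf3 had the opposite sign in primary tumours, -0.23 (SE 0.08, edgeR adjusted p = 0.056), with means of 39.2 ± 4.31 and 33.2 ± 2.31 CPM (SD, n = 8 each). Its adjusted p fell below the threshold without replicate 2 (0.045) or replicate 6 (0.046) of the unirradiated group in edgeR, and with all 48 tumours in 1 fit (-0.24, adjusted p = 0.031). With the 2 groups compared fitted alone, Irf9 in primary tumours was at 0.78 (edgeR adjusted p = 0.063) and Irf8 at 1.16 (adjusted p = 0.084). These comparisons share their control tumours with those of radiation alone.

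**Figure D2:**
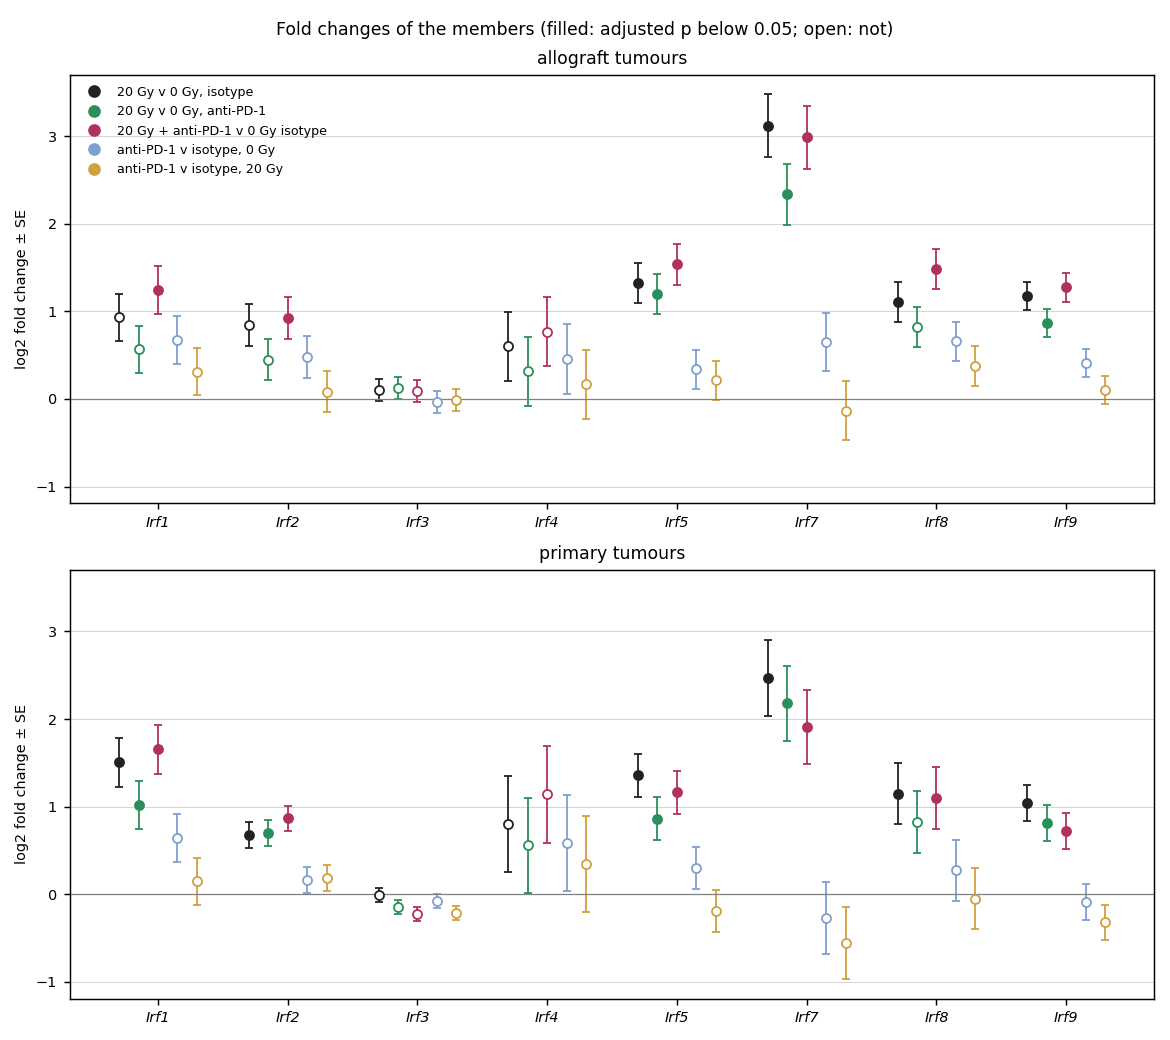
Log2 fold change of each gene with its standard error in 5 comparisons within allografts (upper panel) and primary tumours (lower panel), filled where the adjusted p is below 0.05. All filled points are above 0, Irf7 reaches 3.12 in allografts and 2.47 in primary tumours, and both comparisons of anti-PD-1 with isotype have open points throughout.

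Anti-PD-1 against isotype called 0 of the 8 members and 0 of all genes in either kind, at 0 Gy or at 20 Gy (0% called with edgeR), and DESeq2 also called 0 members. At an unadjusted p below 0.05 there were 299 genes in unirradiated and 682 in irradiated allografts, and 412 and 1443 in primary tumours. Of the members, 3 were among them in unirradiated allografts (Irf1 0.67, Irf8 0.66 and Irf9 0.41), 0 in irradiated allografts, 1 in unirradiated primary tumours (Irf1 0.64) and 1 in irradiated primary tumours (Irf3 -0.22). Irf1 in unirradiated allografts was at 346, 245, 407 and 304 CPM with anti-PD-1 and at 223, 178, 281 and 124.4 CPM with isotype, so that 3 of 4 treated tumours were above all controls (interval of the difference 0.15 to 1.20). In unirradiated primary tumours Irf1 averaged 133.7 ± 28.6 CPM with anti-PD-1 and 86 ± 25 CPM with isotype (SD, n = 8 each), and the groups overlapped (interval 0.11 to 1.17). Irf7 showed no common direction, with differences of 0.65 and -0.13 in allografts and -0.27 and -0.56 in primary tumours, 0 Gy first, each interval holding 0. Without replicate 4 of the isotype group the primary difference at 0 Gy was 0.45. The Irf8 levels of irradiated allografts, 165 to 198 CPM with isotype and 218 to 246 CPM with anti-PD-1, did not overlap (difference 0.38, interval -0.06 to 0.82, edgeR adjusted p = 0.68).

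The interaction of dose with antibody, which asks whether the change with radiation differed between antibodies, was called for 0 members and 0 genes in either kind (edgeR; 269 and 756 genes at an unadjusted p below 0.05, 0 of them members; 0% called; 0 members with DESeq2). For Irf7 the change with radiation was lower by 0.78 under anti-PD-1 than under isotype in allografts (interval of the interaction -1.71 to 0.14) and by 0.29 in primary tumours (interval -1.43 to 0.85); without replicate 4 of the unirradiated isotype primary tumours the latter interaction was -1.02 (edgeR adjusted p = 0.88). For Irf1 the interaction was -0.36 (interval -1.11 to 0.38) and -0.49 (interval -1.24 to 0.26). These intervals do not show that radiation acted alike under both antibodies.

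Between kinds, Irf1 was lower in primary tumours than in allografts without radiation. With isotype it averaged 86 ± 25 CPM in primary tumours (n = 8) and 202 ± 66.6 CPM in allografts (n = 4), a log2 difference of -1.23 (SE 0.25, edgeR adjusted p = 0.0087). All 8 primary tumours were below the lowest allograft, but the highest of them, at 124.04 CPM, was just below that allograft, at 124.4 CPM. Under anti-PD-1 it averaged 133.7 ± 28.6 and 325 ± 68.6 CPM (-1.25, SE 0.18, edgeR adjusted p = 0.0021), again with all 8 below. Irf8 was lower as well under anti-PD-1 (-0.94, SE 0.20, edgeR adjusted p = 0.013), with 69.5 ± 14.4 CPM in primary tumours and 136.5 ± 42.9 CPM in allografts. The Irf8 call was lost without replicate 1 (-0.82, edgeR adjusted p = 0.057) or replicate 3 (-0.79, adjusted p = 0.058) of the allografts. With log2 Ptprc in the fit Irf8 was at -0.39 (edgeR adjusted p = 0.30) and the Irf1 difference at -0.78 with isotype (adjusted p = 0.071) and -0.94 with anti-PD-1 (adjusted p = 0.040). The identifiers in the titles began with 5 in all 4 unirradiated isotype allografts and with 4 in all 8 primary tumours of that treatment, so this digit and the kind cannot be told apart there. Under anti-PD-1, with the digit in the fit, Irf1 was at -1.21 (edgeR adjusted p = 0.039) and Irf8 at -0.77 (adjusted p = 0.22). Without these terms the calls were 1 and 2 of 8 members, against 10% of 17357 genes called with isotype (6.03% higher, 3.99% lower) and 8.94% of 17455 with anti-PD-1 (4.94% higher, 3.99% lower). In the same comparisons 4 and 3 of the 6 T cell markers were lower in primary tumours, and their part in the Irf1 and Irf8 values was not tested. Irf7 and Irf9 did not pass the threshold between kinds at either dose, with Irf7 differences of 0.42 (SE 0.60) and -0.15 (SE 0.20) under isotype at 0 and 20 Gy. Without replicate 4 of the unirradiated primary tumours the difference at 0 Gy was -0.27 (edgeR adjusted p = 0.62), and Irf5 (-0.59, adjusted p = 0.048) and Irf8 (-0.74, adjusted p = 0.033) were called there.

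After radiation 0 members were called between kinds with edgeR, where 4.76% of genes were called with isotype (2.36% higher, 2.4% lower) and 0.00566%, a single gene, with anti-PD-1. At an unadjusted p below 0.05 there were 1 and 2 members, and 3508 and 2965 genes. Without replicate 5 of the irradiated isotype primary tumours Irf1 was called (-0.84, edgeR adjusted p = 0.025). Irf3 with anti-PD-1 was the closest, at 33.2 ± 2.31 CPM in primary tumours and 48.1 ± 7.88 CPM in allografts (SD, n = 8 and n = 4). All 8 primary tumours were below all 4 allografts (-0.54, SE 0.12, edgeR adjusted p = 0.097), and DESeq2 called it (-0.51, adjusted p = 0.00045), as did edgeR with all 48 tumours in 1 fit (-0.54, adjusted p = 0.0014), which also called Irf5 (-0.90, adjusted p = 0.031, against 0.24 with the 2 groups alone). The test of whether a treatment effect differed between kinds was called for 0 members in any of 4 forms (edgeR, and 0 with DESeq2). Over all genes 0.00517% were called, a single gene, for dose under isotype, and 0% in the other three. At an unadjusted p below 0.05 the member counts were 0, 0, 0 and 1, the last being Irf3 in the combined treatment (-0.34, SE 0.14), and the gene counts were 1914, 922, 1864 and 1239. For Irf7 the change with radiation was smaller in primary tumours by 0.64 under isotype, with an interval from -1.91 to 0.62. Without replicate 4 of the unirradiated primary tumours this difference was 0.07 (edgeR adjusted p = 0.96).

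Ptprc rose beside the members under isotype. Its mean was 143.9, 192, 426 and 527 CPM in allografts (0 Gy isotype, 0 Gy anti-PD-1, 20 Gy isotype, 20 Gy anti-PD-1) and 92.9, 106.2, 195 and 194 CPM in primary tumours. Its log2 fold change with 20 Gy under isotype was 1.59 (SE 0.31, edgeR adjusted p = 0.0080) in allografts and 1.09 (SE 0.32, adjusted p = 0.019) in primary tumours. Under anti-PD-1 it was 1.47 (edgeR adjusted p = 0.017) in allografts and 0.88 (adjusted p = 0.081, not called) in primary tumours. When log2 Ptprc was put into the fit, Irf7 in primary tumours was at 2.26 under isotype (SE 0.44, edgeR adjusted p = 0.0026) and 1.99 under anti-PD-1 (adjusted p = 0.0065), and Irf9 at 0.98 (adjusted p = 0.0086) and 0.77 (adjusted p = 0.032). Irf1 was at 0.86 under isotype (SE 0.21, edgeR adjusted p = 0.015) and 0.49 under anti-PD-1 (adjusted p = 0.18). Irf5 was at 0.66 under isotype (SE 0.14, edgeR adjusted p = 0.0056) and 0.33 under anti-PD-1 (adjusted p = 0.17), and Irf2 at 0.38 (adjusted p = 0.089) and 0.47 (adjusted p = 0.020). Irf8 was at 0.01 (SE 0.16, edgeR adjusted p = 0.98) and -0.17 (adjusted p = 0.63), and Irf4 at -0.90 and -1.08, neither called. That fit called 4.58% of all genes under isotype and 5% under anti-PD-1, against 14.5% and 7.92% without the term.

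For both treatments against unirradiated isotype in primary tumours, the fit with Ptprc had Irf7 at 1.74 (edgeR adjusted p = 0.013), Irf1 at 1.03 (adjusted p = 0.0030), Irf2 at 0.57 (adjusted p = 0.0060) and Irf5 at 0.49 (adjusted p = 0.030). The calls of Irf9 (0.67, edgeR adjusted p = 0.062) and Irf8 (-0.06, adjusted p = 0.88) were lost. Of all genes 6.12% were called, against 13.8% without the term. Between kinds without radiation the term left 3.83% called with isotype and 2.14% with anti-PD-1.

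In allografts the fit with Ptprc called 2 of 17746 genes under isotype, 0 under anti-PD-1 and 0 for both treatments (909, 879 and 506 at an unadjusted p below 0.05), and 0 members. For both treatments all 6 calls were lost, with Irf7 at 1.66 (SE 0.56), Irf1 at 0.69, Irf9 at 0.57, Irf8 at 0.36, Irf5 at 0.33 and Irf2 at 0.09. Every irradiated isotype allograft held more Ptprc, 310 to 508 CPM, than every unirradiated one, 95.4 to 222 CPM, so that dose and Ptprc could not be told apart in these 8 tumours. Under anti-PD-1 Ptprc ran from 108.5 to 288 CPM without and from 490 to 620 CPM with radiation, again without overlap. The groups compared for both treatments did not overlap in Ptprc either, so the same limit holds in each of these allograft comparisons.

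**Figure D3:**
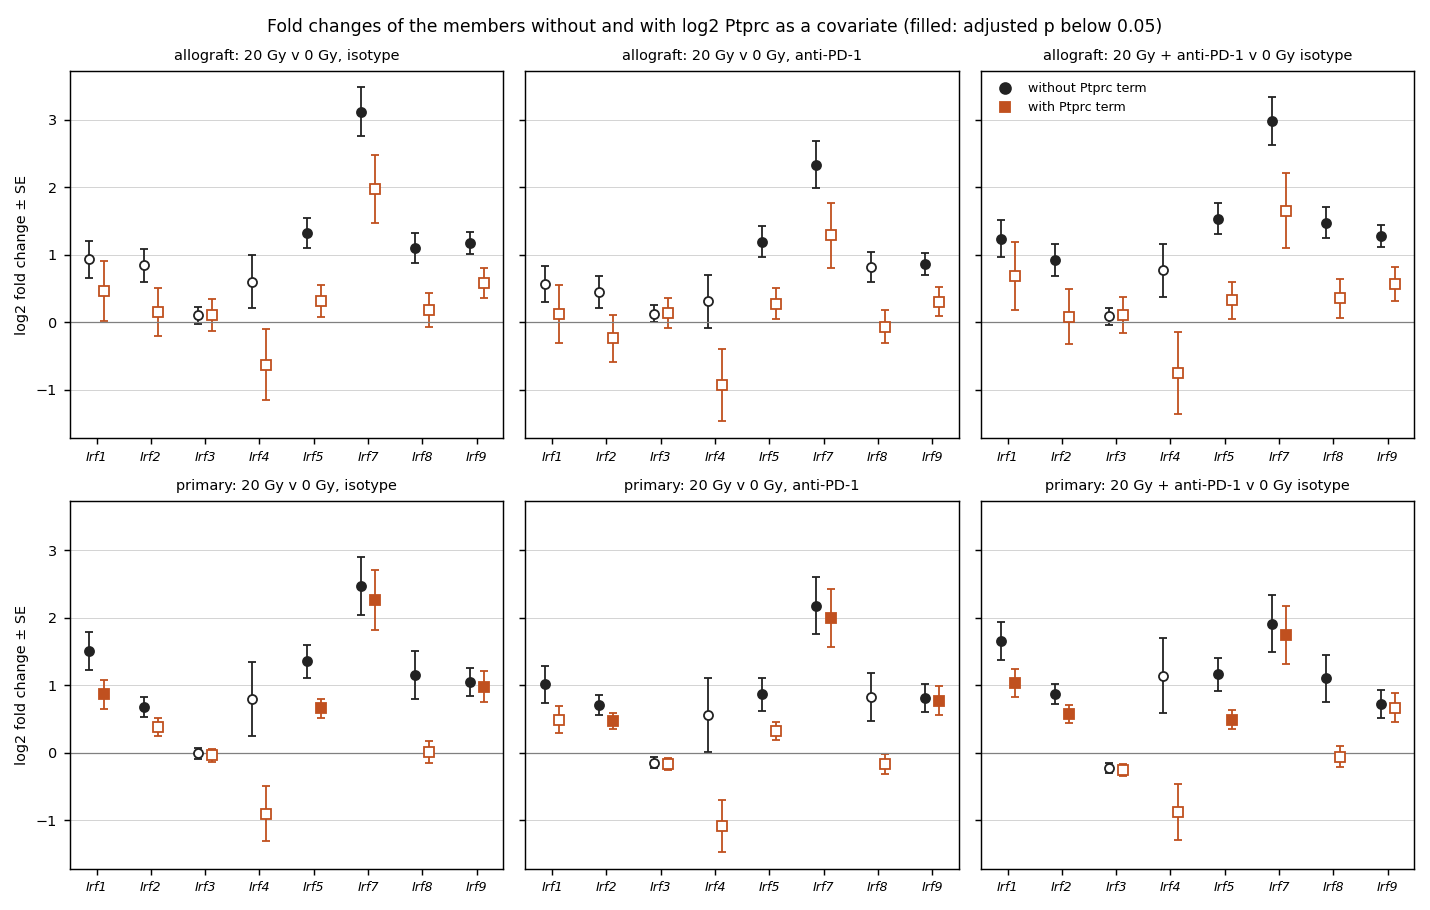
Log2 fold change of each gene with its standard error in 3 comparisons of irradiated with unirradiated tumours, in allografts (upper row) and primary tumours (lower row), fitted without (black circles) and with (orange squares) log2 Ptprc as a term, filled where the adjusted p is below 0.05. In primary tumours given isotype Irf7 is at 2.47 without and 2.26 with the term, and Irf8 at 1.15 and 0.01.

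Per kilobase of exon, the order of levels changed with radiation. In unirradiated isotype allografts Irf1 stood first at 50.7 ± 16.8 CPM per kb, before Irf7 at 39 ± 13.7 (SD, n = 4). In irradiated isotype allografts Irf7 was first at 335 ± 99.7 CPM per kb, followed by Irf1 at 95 ± 8.83 and Irf5 at 43.4 ± 4.34. Primary tumours had Irf7 first in all 4 groups, at 52.7 ± 59 CPM per kb with isotype alone, where Irf1 held 21.6 ± 6.3 and the ranges overlapped, and at 290 ± 49.1 after 20 Gy (SD, n = 8). The Irf7 mean with isotype alone includes replicate 4, which held 739 CPM before division by length, against a group median of 132.2 CPM. Irf4 was last in every group, from 0.331 to 0.987 CPM per kb, and Irf2 and Irf3 were among the lower members after radiation, at 10.6 ± 2.61 and 13.9 ± 2.18 CPM per kb in isotype allografts. With the longest transcript in place of all exons, Irf1 came first in unirradiated primary tumours given anti-PD-1. Ordering the 8 groups of a member by mean level, neighbouring groups overlapped in 7 of 7 pairs for each member but Irf8, whose highest pair, irradiated allografts with and without anti-PD-1, was the exception. The Irf8 difference in that pair was not called (edgeR adjusted p = 0.68). The share of all genes whose groups separate in this way was not computed.

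The genes around the family were read from lists of pathway members. Among interferon ligands 9 of 10 were in the table and 2, Ifnb1 and Ifng, held enough reads to be tested. Ifnb1, the interferon beta gene, averaged 0.126 ± 0.0163 CPM in unirradiated and 0.904 ± 0.915 CPM in irradiated isotype allografts (log2 fold change 2.83, SE 0.72, edgeR adjusted p = 0.033). In primary isotype tumours it averaged 0.111 ± 0.189 and 0.644 ± 0.377 CPM (2.53, SE 0.72, edgeR adjusted p = 0.017). In allografts it was also called under anti-PD-1 (3.14, SE 0.74, edgeR adjusted p = 0.030) and for both treatments against unirradiated isotype (2.59, SE 0.72, adjusted p = 0.032). It was not called in primary tumours under anti-PD-1 (1.74, edgeR adjusted p = 0.15) or for both treatments (1.33, adjusted p = 0.22). Among the irradiated isotype allografts the lowest, median and highest were 0.329, 0.514 and 2.26 CPM, so that the highest tumour stood well apart from the median. The same held in unirradiated isotype primary tumours, where the median was 0.0618 CPM and the highest 0.574 CPM. Ifng, the interferon gamma gene, was called for both treatments in primary tumours, with 0.151 ± 0.157 CPM in unirradiated isotype tumours and 0.956 ± 1.13 CPM after both (SD, n = 8 each; 2.66, SE 0.83, edgeR adjusted p = 0.030), and the groups overlapped. Receptors and JAK-STAT genes called higher were 3 of 9 in isotype allografts and 5 of 9 in isotype primary tumours, where 4.4% and 7.85% of all genes were. Stat2, the partner of Irf9, was among them with 71.3 ± 31.5 against 217 ± 13.9 CPM in allografts (1.63, SE 0.28, edgeR adjusted p = 0.0040) and 83.6 ± 55.7 against 275 ± 46.3 CPM in primary tumours (1.73, SE 0.26, adjusted p = 7.4e-05). Under anti-PD-1 Stat2 was not called in allografts (1.02, SE 0.28, edgeR adjusted p = 0.052) and was called in primary tumours (1.37, SE 0.26, adjusted p = 0.0016).

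Of 19 sensors, adaptors and kinases that act before the Irf proteins, 11 were higher in irradiated isotype allografts, where 4.4% of all genes were, and 10 in primary tumours, where 7.85% were. They included Ifih1, the MDA5 RNA sensor, in allografts (2.13, SE 0.29, edgeR adjusted p = 0.0014) and Zbp1, a sensor of Z-form nucleic acid, in primary tumours (2.44, SE 0.38, adjusted p = 8.4e-05). Ikbke, the gene of a kinase that phosphorylates Irf3 and Irf7, rose by 1.24 in allografts (SE 0.17, edgeR adjusted p = 0.0014). Against the same shares, the corepressors and restrainers had 2 of 7 and 3 of 7 higher. Usp18, which restrains the interferon receptor, stood at 23.1 ± 6.04 and 163 ± 70.9 CPM in allografts (2.83, SE 0.40, edgeR adjusted p = 0.0016), and Trim21, a ubiquitin ligase that acts on Irf proteins, rose by 1.38 in allografts and 1.34 in primary tumours. Of the 6 partner factors of Irf4 and Irf8, 1 was higher in allografts and 3 in primary tumours, with Spi1 at 1.28 (SE 0.25, edgeR adjusted p = 0.0093) and 0.94 (SE 0.21, adjusted p = 0.0030).

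The 18 listed targets of the ISGF3 type, antiviral genes such as Rsad2, Oasl1 and Oas2, were all called higher under isotype in both kinds, 18 of 18, with a median log2 fold change of 2.44 in allografts and 2.03 in primary tumours, where 4.4% and 7.85% of all genes were called higher. Rsad2 stood at 15.3 ± 6.62 CPM and 160 ± 60 CPM in allografts (3.40, SE 0.42, edgeR adjusted p = 0.00091), and Oas2 at 22.3 ± 16.8 and 116.97 ± 30.4 CPM in primary tumours (2.41, SE 0.36, adjusted p = 6.8e-05). Of 16 targets of Irf1 and interferon gamma, 7 were higher in allografts (median 1.26) and 15 in primary tumours (median 1.83). Gbp5, a guanylate-binding protein, rose by 2.77 in primary tumours (SE 0.39, edgeR adjusted p = 4.3e-05) and Cd274, the gene of PD-L1, by 2.90 (SE 0.42, adjusted p = 5.6e-05). Under anti-PD-1 the higher counts were 16 of 18 and 1 of 16 in allografts, where 3.13% of all genes were called higher. They were 17 of 18 and 9 of 16 in primary tumours, where 6.06% were. Between kinds without radiation, 8 of the 16 Irf1 targets were lower in primary tumours under isotype and 13 under anti-PD-1, where 3.99% of all genes were lower in each, and 0 of the 18 ISGF3-type targets were called. Ido1, which degrades tryptophan, was at 0.112 ± 0.118 CPM in primary tumours and 3.87 ± 2.8 CPM in allografts (-5.12, SE 0.71, edgeR adjusted p = 0.0012), and Cxcl9, which attracts T cells, at 60.6 ± 47.3 and 408 ± 233 CPM (-2.75, SE 0.57, adjusted p = 0.010). Ifng, the ligand upstream of these targets, was lower there as well, at 0.151 ± 0.157 and 1.09 ± 0.763 CPM (-2.86, SE 0.70, edgeR adjusted p = 0.023). Its part in the levels of these targets was not tested. In this comparison the first digit of the identifier and the kind cannot be told apart.

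**Figure D4:**
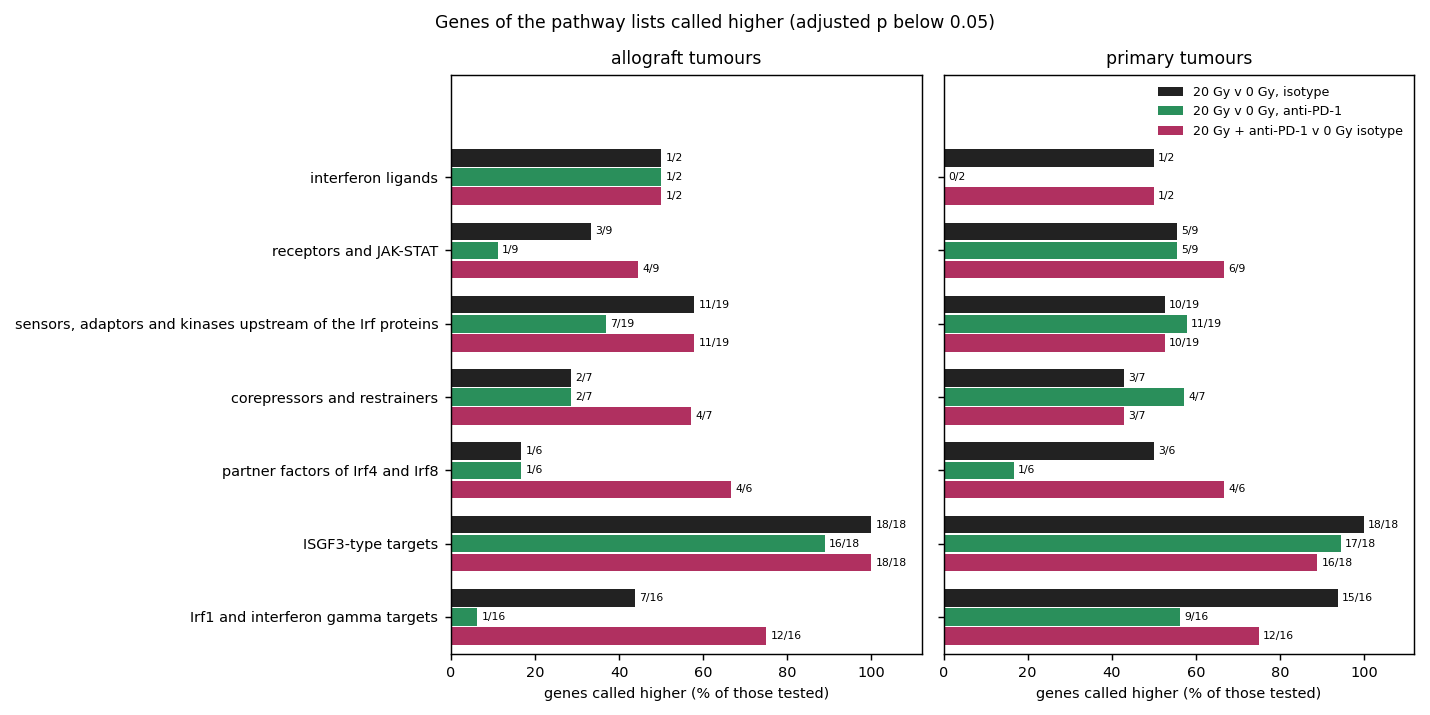
Share of tested genes called higher (adjusted p below 0.05) in 7 lists of genes around the family, as a percentage with the counts beside each bar, for 3 comparisons of irradiated with unirradiated tumours in allografts (left) and primary tumours (right). The ISGF3-type targets are called in 18 of 18 cases under isotype in both kinds, and the Irf1 and interferon gamma targets in 7 of 16 and 15 of 16.

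The genes whose levels moved most closely with each member were found over the 48 tumours, after subtracting each group's mean, by Pearson's r of log2 CPM over 19327 genes. These are descriptions, given without a p, over tumours that share their library preparation and differ in how many host cells they hold. Irf7 lay closest to Zbp1, Rtp4 and Oas1a (r = 0.94 each), and Irf9 to Rtp4 (0.93), Bst2 (0.91) and Oas1a (0.89). Irf1 lay closest to Igtp (0.90), an interferon gamma-inducible GTPase, Socs1 (0.89) and Gbp5 (0.89). The neighbours of Irf5 included Pld4 (0.94) and Il21r (0.93), and those of Irf8 were Rasal3 (0.94), Sash3 (0.93) and Tifab (0.92). Irf4 was followed by Il27ra (0.94), Ikzf3 (0.93), which encodes the lymphoid factor Aiolos, and Fam78a (0.89). Irf2 was followed by Stk4 (0.88), Crybg1 (0.87) and Agap2 (0.86). Irf3 had no close neighbour on this measure, its best being Appbp2os (0.63), Trmt2a (0.61) and Zbtb48 (0.59).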

How the data were processed

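RNA from 48 tumours was sequenced as strand-specific poly(A) libraries, per the labels' protocols. The authors deposited whole-number read counts for 36854 genes, and 36796 had a symbol in GENCODE M21 by identifier. Trimmomatic 0.36, STAR 5.5.4b, HTSeq and the build mm10 are named in the submitters' processing notes, without role or order. The annotation and the strand setting of the counting are not given in the sources used here, so overlapping genes are uncertain.

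Genes were filtered by group with filterByExpr, scaled by TMM and tested with edgeR 4.0.16 (quasi-likelihood F test, R 4.3.3, limma 3.58.1), with Benjamini-Hochberg adjustment over all genes tested and a threshold of 0.05. The 4 groups of a kind entered 1 fit (17746 and 17770 genes). Comparisons between kinds used the 2 groups alone (17357 to 17674 genes), and differences of effects between kinds used all 48 (19327 genes). The SE is the log2 fold change divided by the square root of F, and intervals are 1.96 SE to each side. Log2 CPM for likeness used a prior count of 2. DESeq2 1.42.0 and other filters, scalings, covariates and left-out tumours were alternatives. Tables and plots were made with Python 3.11.15, pandas 2.3.3, numpy 2.4.6 and matplotlib 3.10.9. The fits were tested on simulated data.

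Replicate numbers follow accession order within the labelled groups and pair nothing. Each title carries an identifier of its own, and the labels do not say what it identifies. Its first digit was uneven over groups. In isotype allografts it was 5 in all 4 unirradiated tumours and 4 in 3 of the 4 irradiated ones. The p-values measure the spread between these samples. Named genes were all members, and from each pathway list the called genes with the smallest p, up to 2 a direction, with Stat2 and Ifnb1. The members and the lists were chosen with earlier results of these data known. Some genes, 1 of them in the numbered range, are not reported here.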

Additional observations from a re-analysis of the deposited data

Results flagged for a closer look

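In 7 of 64 pairs of a member and a group, 1 tumour stood apart from the rest of its group by more than a gap test at the 95% level allows. Chance alone flags about 1 in 20 groups, and members that vary together are not independent. Replicate 4 of the unirradiated primary tumours given isotype was high in both Irf7 (739 CPM) and Irf9 (133.4 CPM). Irf1 was high in replicate 5 of the irradiated primary tumours given isotype (499 CPM), and Irf4 in replicate 4 of the irradiated primary tumours given anti-PD-1 (13.9 CPM). Among allografts Irf3 was high in replicate 1 of the irradiated isotype group (58.8 CPM), Irf5 was high in replicate 3 of the unirradiated isotype group (73.2 CPM), and Irf8 was low in replicate 1 of the irradiated anti-PD-1 group (218 CPM).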

How the results depend on the processing

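With Ptprc as a covariate the number of members called was 0 in each of the 3 allograft comparisons of 20 Gy (against 4, 3 and 6), 3 for 20 Gy under anti-PD-1 in primary tumours (against 5), 4 under isotype and 4 in the combination there (against 6 each), and 0 and 1 between kinds at 0 Gy with isotype and with anti-PD-1 (against 1 and 2). Irf8 in the combined treatment of primary tumours changed sign with it, to a log2 fold change of -0.0606. With only the 2 groups compared, 20 Gy under anti-PD-1 in allografts gave 0 called members, and with all 48 tumours in 1 fit it gave 1. Between kinds at 0 Gy with anti-PD-1 the count was 1 with a muscle covariate, 1 with the first digit of the identifier and 1 with all 48 in 1 fit. At 20 Gy with anti-PD-1 it was 1 with DESeq2 and 2 with all 48 in 1 fit, against 0. Leaving out 1 tumour gave 3 to 6 called in isotype allografts, 3 to 4 under anti-PD-1 and 5 to 6 in the combination. In primary tumours it gave 5 to 6, 4 to 6 and 5 to 7, and between kinds, primary tumours left out too, 1 to 3 with isotype and 1 to 2 with anti-PD-1 at 0 Gy and 0 to 1 with isotype at 20 Gy. Every alternative gave 0 called members for anti-PD-1 against isotype and for the interactions. With muscle markers as a covariate Irf8 in primary tumours missed the threshold under isotype (1.01, edgeR adjusted p = 0.051) and in the combination (0.92, adjusted p = 0.079). With Xist above 10 CPM as a covariate it missed it in the combination (1.04, edgeR adjusted p = 0.057), as did Irf2 in the allograft combination (0.89, adjusted p = 0.056). Over single genes, settings that kept every tumour lost 36 calls and gained 8, beside the change of sign, and with it 21 calls were lost under Ptprc. Leaving out tumours lost 22 and gained 11, and 175 changes of sign were among values called in neither setting. Scaling by total counts moved 0 of 64 group means by more than 1 SD. Between kinds, leaving out primary tumours and the term for that digit were chosen after seeing the data, and the digit could not be fitted at 0 Gy with isotype. No paired analysis was possible because replicate numbers follow accession order and pair no tumours. Of 9 interferon ligands in the table, 2 held enough reads to be tested, and Irf4 had as few as 11 reads in a tumour.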
